A study of Mus musculus with 28 samples.

Results

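The 8 genes described here are those of the enzymes that write, keep and oxidise 5-methylcytosine in DNA: Dnmt1, Dnmt3a, Dnmt3b, Dnmt3l, Uhrf1, Tet1, Tet2 and Tet3. They were chosen by name, and the 57 transcripts listed under these names, of 94480 transcripts in the table, were summed to 8 of 37175 genes. RNA sequencing was done on 28 libraries from 13 mice, labelled wildtype (WT) or Csmd1 KO; Csmd1 codes for a large membrane protein with complement control domains. The labels give the strain as C57BL/6, while the study's methods describe a line of mixed 129SvEvBrd and C57BL/6 background. The knockout is constitutive and carries a reporter and selection cassette in place of the first exon and the start of the first intron. Germ cells were sorted by DNA content with the dye Hoechst, from males that the study's methods describe as sexually mature. The sorted stages were spermatogonia (2 WT, 2 KO libraries), primary spermatocytes (2 WT, 4 KO), secondary spermatocytes (2 WT, 3 KO) and spermatids (3 WT, 2 KO). Whole testis was sequenced from 2 WT and 5 KO mice, and whole ovary from 1 WT mouse. The labels give no ages, and the study sampled testes both before and after sexual maturity. A mouse is named below by its label number, since WT mice 178 and 648 and KO mouse 544 each gave all 4 sorted stages and several mice gave more than 1 library.

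DNA methylation is copied onto the new strand at replication by DNMT1, which UHRF1 brings to hemimethylated sites. New methylation is set by DNMT3A and DNMT3B, and DNMT3L, which has no catalytic activity of its own, binds and stimulates them. The TET enzymes oxidise 5-methylcytosine, after which it can be lost by dilution or by base excision repair. In the male germ line the bulk of new methylation, including that of imprinted genes, is laid down in the prospermatogonia of the fetus, where DNMT3L is needed, and adult germ cells mainly keep it through the divisions of spermatogonia.

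Depth, read back from the steps between low RPKM values (reads per kilobase of transcript, scaled to the depth of the library), was 23786061 to 61633148 reads in 27 libraries (median 45363145 reads), in which 93.1 to 94.6% of the values tried were whole reads. The column of KO primary spermatocytes of mouse 613 gave 14.1%, close to the 12% that chance gives, so its depth is unknown and the longest coding transcripts of Dnmt3b and Dnmt3l are listed at 0 there, although other transcripts of both genes are not. The longest coding transcript of Csmd1 had 0 to 2.0 RPKM in sorted KO libraries (median 0.174, n = 11) and 0.008 to 0.517 RPKM in sorted WT libraries (median 0.069, n = 9). Most of this transcript lies outside the deleted part, so its level does not check the labels. The summed RPKM of 6 spermatogonial markers was 284 to 830.4 in sorted spermatogonia and 14.1 to 274.1 in the other sorted libraries. That of 6 primary spermatocyte markers was 349 to 1953 in spermatogonia (median 964.4) and 415.1 to 2366 in primary spermatocytes (median 929.7). These markers thus did not set the 2 stages apart, and the part of spermatocyte RNA in the spermatogonia libraries was not tested. The summed RPKM of 6 spermatid markers (Acrv1, Prm1, Prm2, Tnp1, Tnp2, Spaca1) varied widely within labels. It was 10790 in spermatogonia of KO mouse 544, against the label, and 6.93 to 466.9 in the other 3 spermatogonia libraries. In spermatids it was 7290 to 7509 in mice 178, 351 and 544 but 259 in mouse 648 and 248.7 in mouse 286. The whole testes of mice 648 and 286 also had far lower sums of these markers than that of mouse 178, as given below. The cause was not tested. The stage comparisons were also fitted without the spermatogonia library of mouse 544, and without the spermatid libraries of mice 648 and 286.

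**Figure D1:**
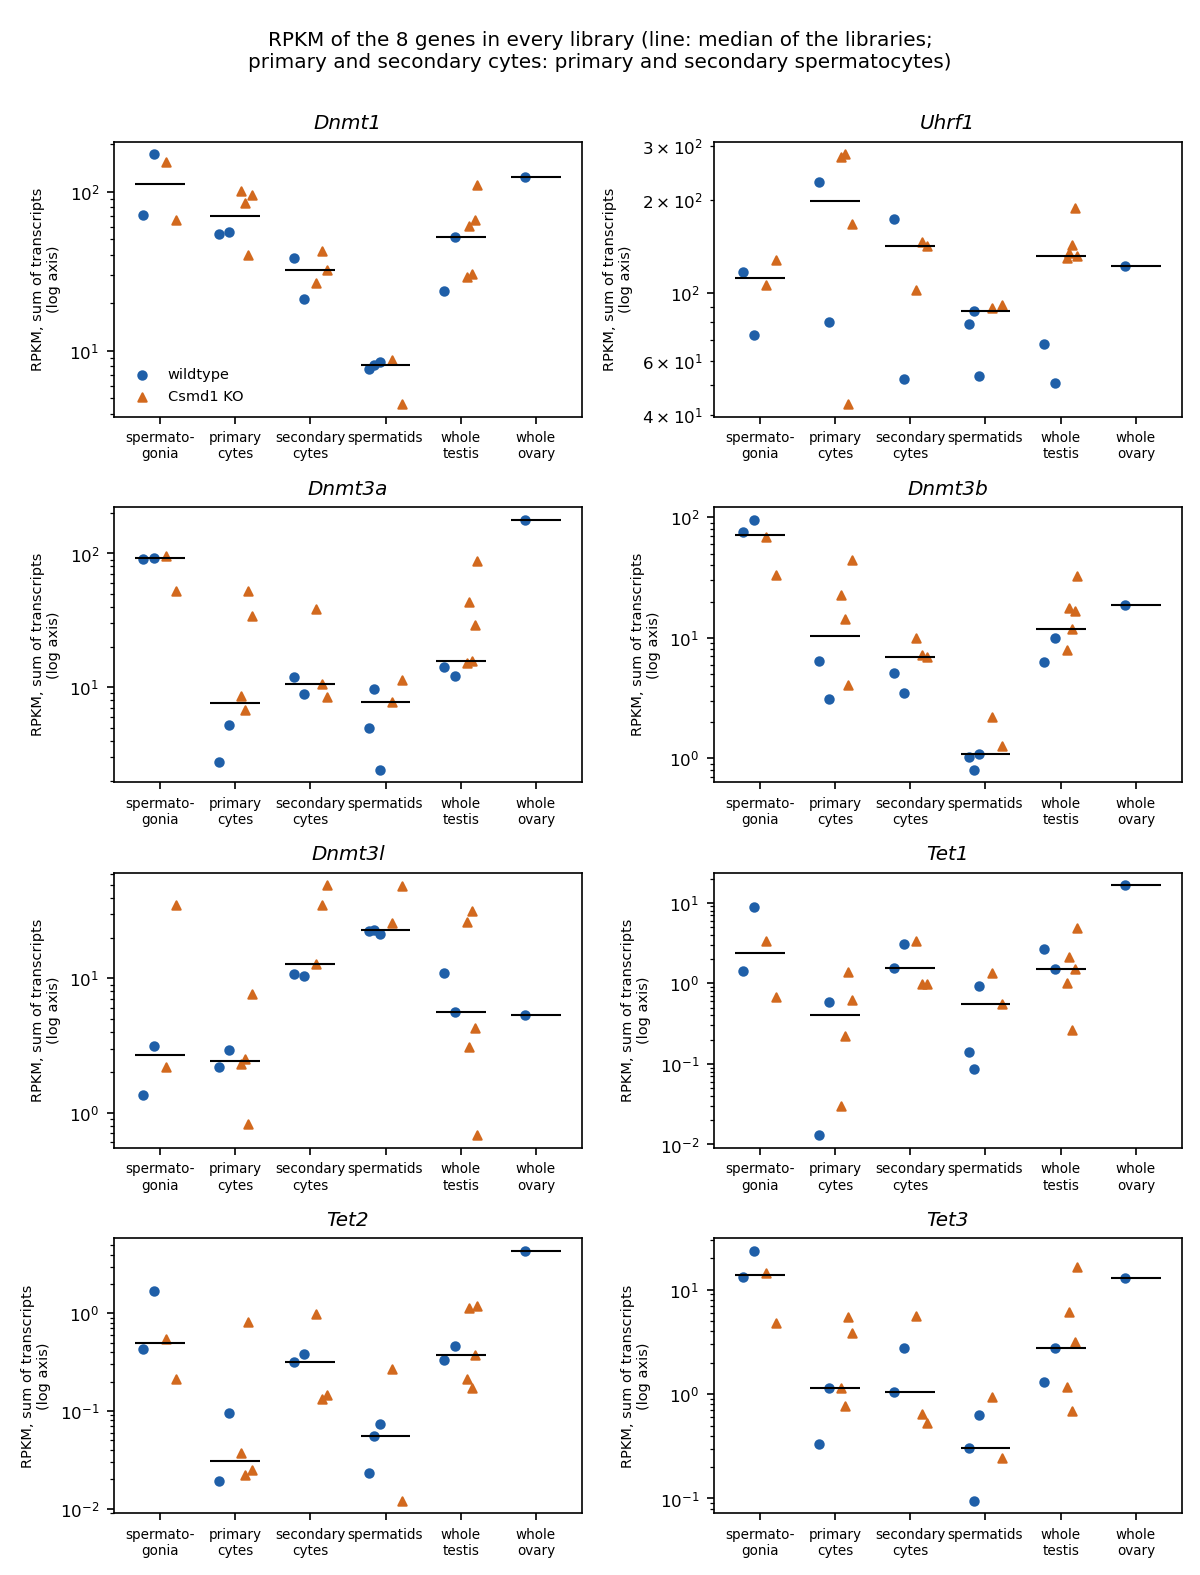
RPKM (log axis) of each of the 8 genes, summed over transcripts, in every library by sorted stage and tissue, with circles for wildtype, triangles for Csmd1 KO and a line at the median of all libraries of a stage. Dnmt1 and Dnmt3b stepped down to spermatids, Dnmt3l was above 10 RPKM in every secondary spermatocyte and spermatid library and in 1 of 4 spermatogonia libraries, and Uhrf1 stayed between 43.3 and 282 RPKM in all sorted libraries.

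Between spermatogonia and spermatids, 4 of the 8 genes fell (Dnmt1, Dnmt3a, Dnmt3b, Tet3) and 1 rose (Dnmt3l), where 22.6% of the 19026 genes tested were called lower and 21.9% higher. Dnmt3b fell most, by 5.24 on the log2 scale, and Dnmt3l rose by 3.18. Uhrf1, Tet1 and Tet2 did not pass the test. The median log2 difference of the 8 genes was −2.35, and that of all genes tested was 0.01. Differences were tested with limma on log2(quantile-normalized RPKM + 0.1), averaged over both genotypes, with Benjamini-Hochberg adjustment over all genes tested and a threshold of 0.05. In sorted or whole tissue, fewer cells of a type and less RNA per cell cannot be told apart.

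Dnmt1 (chr9:20907209-20959888, minus strand, GRCm38), the maintenance methyltransferase, had the highest levels in spermatogonia, with 71.6 and 172 RPKM in WT mice 178 and 648 and 153 and 66.6 RPKM in KO mice 286 and 544. In primary spermatocytes it stood at 54.3 and 55.3 RPKM in WT mice 178 and 648 and at 39.9 to 100.2 RPKM in 4 KO mice. In secondary spermatocytes it ranged from 21.1 to 42.1 RPKM over 5 libraries. Spermatids held 7.68, 8.14 and 8.44 RPKM in WT mice 178, 351 and 648 and 8.74 and 4.61 RPKM in KO mice 286 and 544. All 5 spermatid libraries lay below all secondary spermatocyte libraries, as for 2 of the 8 genes (Dnmt1 and Dnmt3b) and 6.31% of all genes tested, while the ranges of neighbouring earlier stages overlapped. In the 4 mice that gave both stages, spermatids held 10.7% (mouse 178), 4.92% (648), 5.73% (286) and 6.91% (544) of the level in spermatogonia. The difference between spermatids and spermatogonia was −3.75 (SE 0.42, limma adjusted p = 0.000105).

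Uhrf1 (chr17:56303321-56323486, plus strand), which recognises hemimethylated DNA and recruits DNMT1, had 117 and 72.7 RPKM in WT spermatogonia (mice 178 and 648) and 106 and 128 RPKM in KO spermatogonia (286 and 544). In spermatids it had 79.2, 87.1 and 53.6 RPKM in WT mice 178, 351 and 648 and 88.9 and 91.3 RPKM in KO mice 286 and 544. The 2 stages overlapped. Within mice, the spermatid level of Uhrf1 was 67.7 to 84.2% of the spermatogonial level, where that of Dnmt1 was 4.92 to 10.7%. The Uhrf1 difference of −0.53 (95% confidence interval −1.47 to 0.42) did not pass the test (limma adjusted p = 0.352). Its highest levels were in primary spermatocytes, with 229 and 80.2 RPKM in WT mice 178 and 648 and 277, 282, 43.3 and 167 RPKM in KO mice 544, 550, 613 and 614. The primary spermatocyte libraries spanned the whole range of this gene in sorted cells only with mouse 613, whose column does not step in whole reads. In that column Uhrf1-201 was listed at 0.171 RPKM and Uhrf1-202 at 20.1 RPKM. The other primary spermatocyte libraries had 80.2 to 282 RPKM.

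Dnmt3a (chr12:3806007-3914443, plus strand), a de novo methyltransferase, had 91.1 and 92.5 RPKM in spermatogonia of WT mice 178 and 648 and 96.0 and 52.6 RPKM in those of KO mice 286 and 544. In primary spermatocytes it had 2.78 and 5.24 RPKM in WT mice 178 and 648, 8.62 and 6.79 RPKM in KO mice 544 and 550, and 52.7 and 34.4 RPKM in KO mice 613 and 614. The summed values of mice 613 and 614 thus stood apart from those of the other 4 libraries. In mouse 613 the transcript Dnmt3a-209 alone gave 29.4 RPKM of the sum. The longest coding transcript had 0.139 RPKM in mouse 613 and 1.45 RPKM in mouse 614, against 0.104 to 0.427 RPKM in the other 4 libraries. The library of mouse 614 also had the highest summed level of spermatogonial markers outside spermatogonia, 274.1 RPKM, where that of mouse 613 was 80.1 RPKM and the other primary spermatocytes had 18.6 to 89.4 RPKM, and the part of these transcripts in the result was not tested. Secondary spermatocytes ranged from 8.47 to 38.3 RPKM and spermatids from 2.42 to 11.4 RPKM. All spermatids lay below all spermatogonia, as for 4 of the 8 genes and 25.7% of all genes tested. Dnmt3a fell by 3.04 on the log2 scale from spermatogonia to primary spermatocytes (SE 0.71, limma adjusted p = 0.00481), and its spermatid level differed from spermatogonia by −3.38 (SE 0.73, limma adjusted p = 0.00171). The first call was lost without mouse 178 (limma adjusted p = 0.081) and without mouse 648 (0.052).

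Dnmt3b (chr2:153649450-153687730, plus strand), the other de novo methyltransferase, had 74.9 and 95.2 RPKM in spermatogonia of WT mice 178 and 648 and 68.4 and 33.4 RPKM in those of KO mice 286 and 544. In primary spermatocytes it ranged from 3.14 RPKM (WT 648) to 44.1 RPKM (KO 614), and in secondary spermatocytes from 3.49 to 10 RPKM. In spermatids it had 1.03, 0.805 and 1.08 RPKM in WT mice 178, 351 and 648 and 2.21 and 1.26 RPKM in KO mice 286 and 544. No spermatid library reached the lowest secondary spermatocyte library, and within mice the spermatid level was 1.14 to 3.77% of the spermatogonial level. Dnmt3b fell by 2.90 at the first step (SE 0.61, limma adjusted p = 0.00271) and differed by −5.24 between spermatids and spermatogonia (SE 0.63, limma adjusted p = 0.000105). The first-step call was lost without mouse 648 (limma adjusted p = 0.066).

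Dnmt3l (chr10:78041947-78063622, plus strand), the cofactor without catalytic activity, was the 1 gene of the 8 that rose. Spermatogonia had 1.35 and 3.15 RPKM in WT mice 178 and 648 and 2.18 and 35.2 RPKM in KO mice 286 and 544. The high value was in the library of mouse 544 that also had 10790 RPKM of spermatid markers, and the part of spermatid RNA in it was not tested. Primary spermatocytes had 2.17 and 2.92 RPKM in WT mice 178 and 648 and 2.32, 2.53, 0.827 and 7.68 RPKM in KO mice 544, 550, 613 and 614. Secondary spermatocytes had 10.7 and 10.4 RPKM in WT mice 178 and 648 and 12.9, 35.5 and 49.3 RPKM in KO mice 286, 544 and 550. All 5 secondary spermatocyte libraries lay above all 6 primary spermatocyte libraries, as for 1 of the 8 genes and 5.09% of all genes tested. Spermatids had 22.4, 23.0 and 21.4 RPKM in WT mice 178, 351 and 648 and 26.0 and 48.4 RPKM in KO mice 286 and 544. Within mice, spermatids held 16.6 times (178), 6.81 times (648), 11.9 times (286) and 1.38 times (544) the spermatogonial level. Among spermatid libraries, mice 648 and 286, with 259 and 248.7 RPKM of spermatid markers, had Dnmt3l levels close to those of mice 178 and 351. Mouse 544, which like mice 178 and 351 had a high marker sum, had the highest level, 48.4 RPKM. The part of spermatid content in these levels was not tested.

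The spermatid to spermatogonia difference of Dnmt3l was 3.18 (SE 0.78, limma adjusted p = 0.00391), and 4.11 (SE 0.75, limma adjusted p = 0.000345) without the spermatogonia library of mouse 544. From primary to secondary spermatocytes Dnmt3l differed by 2.51 (SE 0.72), which did not pass (limma adjusted p = 0.0652). With the mouse as a replicate block it did, at 2.61 (limma adjusted p = 0.00682), and likewise without the spermatogonia library of mouse 544 (2.52, limma adjusted p = 0.0242). The step from secondary spermatocytes to spermatids was 0.78 (95% confidence interval −0.79 to 2.34), with overlapping ranges.

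Dnmt3l is transcribed from several start sites, and the RefSeq table (GRCm38.p6) gives 3 windows of 250 bases before to 50 after a start. They are shown because the coding transcripts Dnmt3l-205 and Dnmt3l-201 and the short transcript Dnmt3l-203, whose levels follow, begin at them in this order. The window of Dnmt3b, which moved the other way, is shown for contrast, and capitals mark CG dinucleotides, the target of these enzymes. All are on the plus strand.
Dnmt3l, chr10:78042037-78042336: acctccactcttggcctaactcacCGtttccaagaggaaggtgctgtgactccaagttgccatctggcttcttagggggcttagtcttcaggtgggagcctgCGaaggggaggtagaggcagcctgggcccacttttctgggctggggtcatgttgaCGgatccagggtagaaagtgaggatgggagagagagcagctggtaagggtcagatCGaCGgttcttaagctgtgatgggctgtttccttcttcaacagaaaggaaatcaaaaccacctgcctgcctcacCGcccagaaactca
Dnmt3l, chr10:78049592-78049891: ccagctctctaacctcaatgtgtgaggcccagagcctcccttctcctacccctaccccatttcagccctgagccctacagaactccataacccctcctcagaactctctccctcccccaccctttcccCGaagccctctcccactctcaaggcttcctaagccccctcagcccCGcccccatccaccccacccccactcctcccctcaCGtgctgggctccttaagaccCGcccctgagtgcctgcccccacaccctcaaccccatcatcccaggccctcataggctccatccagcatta
Dnmt3l, chr10:78055085-78055384: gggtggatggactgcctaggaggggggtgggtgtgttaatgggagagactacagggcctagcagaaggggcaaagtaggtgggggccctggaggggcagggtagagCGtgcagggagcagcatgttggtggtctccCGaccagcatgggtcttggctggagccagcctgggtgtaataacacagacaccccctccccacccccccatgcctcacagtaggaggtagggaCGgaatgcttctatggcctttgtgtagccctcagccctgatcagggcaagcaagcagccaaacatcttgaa
Dnmt3b, chr2:153649199-153649498: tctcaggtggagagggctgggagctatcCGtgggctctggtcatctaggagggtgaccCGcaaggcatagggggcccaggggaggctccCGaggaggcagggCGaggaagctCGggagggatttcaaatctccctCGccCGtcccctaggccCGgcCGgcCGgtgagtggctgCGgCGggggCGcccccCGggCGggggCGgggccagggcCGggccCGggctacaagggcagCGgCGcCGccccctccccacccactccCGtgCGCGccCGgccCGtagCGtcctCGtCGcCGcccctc
The 3 Dnmt3l windows hold 6, 4 and 3 CG dinucleotides, against 30 in the Dnmt3b window and a median of 7 over 32851 promoter windows. Of all windows, 43.6%, 31.4% and 23.3% have fewer CG than the Dnmt3l windows, and 88.3% have fewer than that of Dnmt3b. The other windows of the 8 genes hold 2 (a Dnmt1 start) to 57 (Tet2), so that a low count is shared by 1 start of a gene that fell. The cyclic AMP response element TGACGTCA, searched on both strands, is in none of the 15 windows of the 8 genes and in 1.79% of all windows. Its core TGACG, which lies within the full element, is in the first Dnmt3l window, in the Tet2 window and in 20.8% of all windows.

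The short transcript Dnmt3l-203 shares 43.6% of the bases of the long coding transcript Dnmt3l-201, and reads on it were set against reads on Dnmt3l-201. The count of short over long was 79.9 to 105% in spermatogonia and 80.1 to 113% in primary spermatocytes. It was 96.1 to 105% in secondary spermatocytes, and spermatids gave 97.5 to 103%. Whole testes gave 93.1 to 106%, and the ovary gave 36.9% (31 reads against 84), below the 43.6% of bases shared. In the 19 sorted libraries with known depth and the 7 testes the short transcript thus held about as many reads as the long one, and in the ovary it held fewer. Since a read on shared bases counts for both, how many reads lay on bases of 1 transcript alone was not tested. The short transcripts that start there have a coding length of 378 bases, against 1263 for Dnmt3l-201. There is 1 ovary and no test of this difference. Dnmt3l and Aire overlap on opposite strands by 67 exonic bases, and whether the counting used strand is not given in the sources used here.

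**Figure D2:**
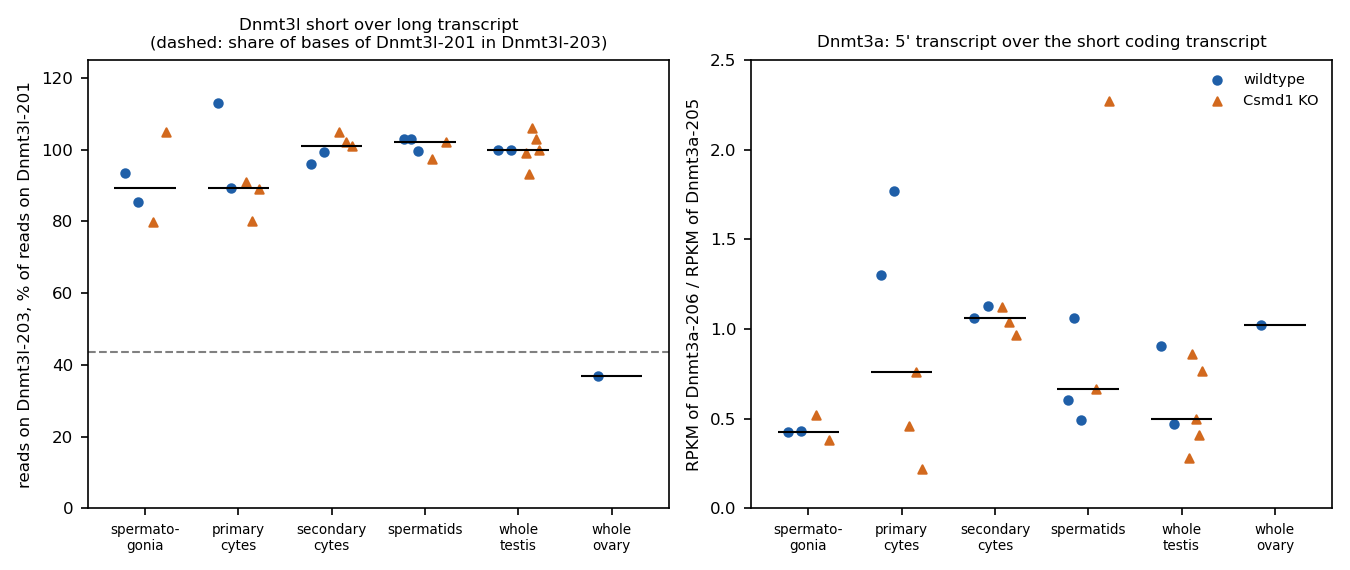
Left, reads on the short Dnmt3l-203 as % of reads on the long Dnmt3l-201 (dashed line: the 43.6% of bases of the long transcript that the short one shares); right, RPKM of the 5′ transcript Dnmt3a-206 over that of the short coding transcript Dnmt3a-205, per library, with lines at medians. All testis and sorted libraries of Dnmt3l sit at 79.9% or more and the ovary at 36.9%, while the 4 spermatogonia libraries of Dnmt3a sit at 0.379 to 0.518.

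Dnmt3a has a long form and a short form from an internal start, both catalytic. The transcript Dnmt3a-206 lies only in 5′ exons of the long form (chr12:3806527-3873381), and its RPKM was divided by that of the short coding transcript Dnmt3a-205, which starts at position 3891728, a comparison chosen after its values were seen and not tested. The ratio of Dnmt3a-206 to Dnmt3a-205 was 0.379 to 0.518 in 4 spermatogonia libraries and 0.966 to 1.13 in 5 secondary spermatocyte libraries. It spread from 0.217 to 1.77 in the 5 primary spermatocyte libraries with known depth, and from 0.49 to 2.27 in 5 spermatid libraries, where Dnmt3a as a whole was low. Whole testes gave 0.282 to 0.906 and the ovary 1.02. Dnmt3a-206 held 54 to 144 reads in spermatogonia, 10 to 23 in primary spermatocytes, 23 to 110 in secondary spermatocytes and 4 to 62 in spermatids. After a first exon of 133 bases, the exons of Dnmt3a-205 (2328 bases in all) are not particular to the short form. Reads of the long form can count on them, so the ratio does not separate the long and short forms. Dnmt3a overlaps Dnmt3aos on the opposite strand by 133 exonic bases.

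Tet3 (chr6:83362373-83459084, minus strand), 1 of the 3 dioxygenases that oxidise 5-methylcytosine, had its highest median in spermatogonia. There it had 13.4 and 23.5 RPKM in WT mice 178 and 648 and 14.3 and 4.75 RPKM in KO mice 286 and 544. In primary spermatocytes Tet3 had 0.33 and 1.15 RPKM in WT mice 178 and 648 and 1.14, 0.772, 5.43 and 3.82 RPKM in KO mice 544, 550, 613 and 614. Secondary spermatocytes ranged from 0.527 RPKM (KO 550) to 5.60 RPKM (KO 286). The primary spermatocytes of KO mouse 613 and the secondary spermatocytes of KO mouse 286 thus lay above the spermatogonia of KO mouse 544. In spermatids Tet3 had 0.305, 0.095 and 0.637 RPKM in WT mice 178, 351 and 648 and 0.945 and 0.242 RPKM in KO mice 286 and 544. All spermatids lay below all spermatogonia, as for 4 of the 8 genes (Dnmt1, Dnmt3a, Dnmt3b and Tet3) and 25.7% of all genes tested, and within mice the spermatid level was 2.28 to 6.62% of the spermatogonial level. Tet3 fell by 2.54 at the first step (SE 0.74, limma adjusted p = 0.0165) and differed by −4.06 between spermatids and spermatogonia (SE 0.76, limma adjusted p = 0.000724). The first-step call was lost without mouse 178, 286 or 648 (limma adjusted p = 0.116, 0.0525 and 0.0752).

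Tet1 (chr10:62804570-62908996, minus strand) was low and varied within stages. Tet1 had 1.41 and 8.89 RPKM in spermatogonia of WT mice 178 and 648 and 3.4 and 0.678 RPKM in those of KO mice 286 and 544. Primary spermatocytes ranged from 0.013 to 1.38 RPKM, secondary spermatocytes from 0.969 to 3.31 RPKM and spermatids from 0.086 to 1.33 RPKM. The differences of −1.93 at the first step (95% confidence interval −3.62 to −0.24, limma adjusted p = 0.0773) and 1.86 at the second (0.25 to 3.47, limma adjusted p = 0.164) did not pass. With the mouse as a block both did (limma adjusted p = 0.00864 and 0.0180). Tet2 (chr3:133463679-133545139, minus strand) had 0.213 to 1.69 RPKM in spermatogonia and 0.019 to 0.822 RPKM in primary spermatocytes. Secondary spermatocytes had 0.131 to 0.981 RPKM of Tet2, and spermatids 0.012 to 0.268 RPKM. Its difference between spermatids and spermatogonia, −1.32 (SE 0.60), did not pass (limma adjusted p = 0.0821), and passed with the block (−1.33, limma adjusted p = 0.0123).

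The spermatogonia of WT mouse 648 had the highest Tet1, Tet2 and Tet3 of the sorted libraries. The summed RPKM of 6 peritubular and stromal markers was 797.8 there, against 133.4, 195.2 and 30.6 in the spermatogonia of mice 178, 286 and 544, and that of 6 Leydig cell markers was 322.1 against 10.7 to 24.8. The part of these cells in the TET levels was not tested. In the fit without mouse 648, Tet3 passed between spermatids and spermatogonia (limma adjusted p = 0.0086). The summed RPKM of 6 Sertoli cell markers was 53.0 to 100.9 in spermatogonia, highest in mouse 648, against 3.41 to 25.4 in primary spermatocytes.

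**Figure D3:**
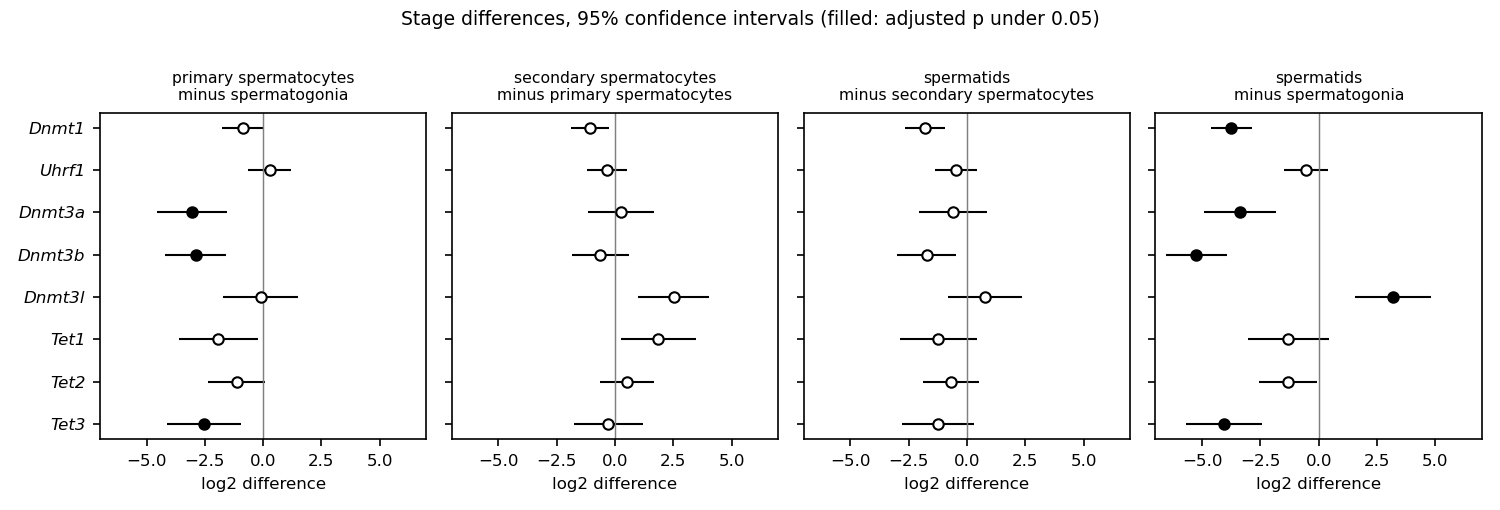
Difference on the log2(quantile-normalized RPKM + 0.1) scale with its 95% confidence interval for each gene in 4 comparisons of sorted stages, averaged over genotypes, with filled points past the threshold. From spermatogonia to primary spermatocytes 3 genes fell, in the 2 later steps none passed, and between spermatids and spermatogonia 4 fell and Dnmt3l rose.

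By steps, the falls of Dnmt3a, Dnmt3b and Tet3 passed between spermatogonia and primary spermatocytes, so that 3 of the 8 genes were called lower and 0 higher, where 15% of genes were called lower and 16.3% higher. Dnmt1 had a difference of −0.88 there (limma adjusted p = 0.114), which passed without the spermatogonia library of mouse 544 (−1.43, limma adjusted p = 0.00656). From primary to secondary spermatocytes 0 of 8 were called, where 1.58% of genes were higher and 1.12% lower. From secondary spermatocytes to spermatids 0 of 8 were called, where 0.0158% were higher and 0.0788% lower. At those later steps Dnmt1 differed by −1.08 and −1.79 (limma adjusted p = 0.118 and 0.0786), and both passed with the mouse as a block (limma adjusted p = 0.0351 and 0.0132). The block also called Dnmt3b lower at the last step (−1.72, limma adjusted p = 0.0421).

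The calls of Dnmt1, Dnmt3a, Dnmt3b, Dnmt3l and Tet3 between spermatids and spermatogonia held in every alternative fit but that of KO libraries alone. Without the spermatogonia library of mouse 544 the log2 differences of Dnmt1, Dnmt3a, Dnmt3b, Dnmt3l and Tet3 were −4.31, −3.84, −5.75, 4.11 and −4.59. Without the spermatid libraries of mice 648 and 286, an alternative chosen after seeing the data, they were −3.85, −2.95, −5.39, 3.43 and −4.67 (largest limma adjusted p = 0.0140). In WT libraries alone the differences were −3.97, −4.29, −6.46, 3.92 and −5.22, all past the threshold. In KO libraries alone they were −3.63, −2.62, −4.24, 2.34 and −3.07, with limma adjusted p from 0.157 to 0.367 and no gene of the whole table called (3515 at an unadjusted p under 0.05). The KO spermatogonia were 2 libraries, of which that of mouse 544 held the spermatid markers.

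Levels of different genes were set against each other by the transcript with the longest coding length, which is per kilobase. In spermatogonia the median RPKM of this transcript was 38.2 for Dnmt1, 19.5 for Uhrf1, 6.03 for Dnmt3b, 4.41 for Dnmt3a and 4.36 for Tet3, while Tet2, Dnmt3l and Tet1 had 0.492, 0.355 and 0.248 (n = 4 libraries). In primary spermatocytes Uhrf1 had 29.3 and Dnmt1 23.8 RPKM. In spermatids the order was Uhrf1 with 11.9, Dnmt3l with 2.80 and Dnmt1 with 2.75 RPKM, followed by Dnmt3a with 0.325, Tet3 with 0.15 and Dnmt3b with 0.101 RPKM (n = 5). By medians Dnmt3l thus stood below the de novo enzymes in spermatogonia and above them in spermatids, but in the spermatogonia of mouse 544 it stood above them, with 4.04 RPKM against 2.27 for Dnmt3a and 2.55 for Dnmt3b. In the ovary the order was Dnmt1 with 42.5, Uhrf1 with 19.1, Dnmt3a with 10.2, Tet3 with 5.54, Tet2 with 4.35, Tet1 with 2.5, Dnmt3b with 1.70 and Dnmt3l with 0.988 RPKM.

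Knockout and wildtype were compared over the 20 sorted libraries, and 0 of the 8 genes were called, where 0.0105% of genes (2 of 19026) were. The largest of the 8 differences was that of Dnmt3l, 0.73 higher in KO (95% confidence interval −0.40 to 1.85, limma adjusted p = 0.727). Intervals for the other genes ran from −0.70 to 0.51 for Dnmt1, −0.51 to 1.59 for Dnmt3a, −0.64 to 1.16 for Dnmt3b and −0.42 to 0.87 for Uhrf1. For Tet1, Tet2 and Tet3 they were −1.40 to 0.96, −1.33 to 0.38 and −1.34 to 0.85. By stage, the Dnmt3l difference between KO and WT was 2.04 in spermatogonia, −0.82 and 1.24 in primary and secondary spermatocytes, and 0.45 in spermatids, none past the threshold. The test of whether the genotype difference varied with stage called 0 of the 8, and 0.0% of all genes (469 at an unadjusted p under 0.05). Without KO mouse 286, 940 genes of the table differed between genotypes, and Dnmt3l stood at 1.48 (limma adjusted p = 0.0969), with none of the 8 called. Mouse 286 was the only sorted KO mouse in the same column set, by transcripts with a value, as WT mice 178 and 351. Genotype and column set partly coincide in sorted cells and cannot be fully told apart.

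In whole testis, 0 of the 8 genes and 0.0% of 22760 genes were called between KO and WT by limma (789 at an unadjusted p under 0.05). Dnmt3l varied most between testes, with 10.9 and 5.64 RPKM in WT mice 178 and 648 and 26.5, 3.08, 32.0, 4.25 and 0.677 RPKM in KO mice 214, 269, 273, 286 and 308. KO testes lay on both sides of the WT testes. The summed RPKM of spermatid markers varied with it: 4792 and 73.9 in WT mice 178 and 648, and 8705, 27.1, 10680, 33.6 and 8.56 in KO mice 214, 269, 273, 286 and 308, so that the order of the 7 testes was the same for both, and the part of spermatid content in the level of Dnmt3l was not tested. The KO minus WT difference of Dnmt3l was −1.01 (95% confidence interval −3.79 to 1.77).

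Dnmt3a in the same testes had 14.3 and 12.2 RPKM in WT mice 178 and 648 and 15.1, 43.2, 15.8, 29.4 and 88.2 RPKM in KO mice 214, 269, 273, 286 and 308. All 5 KO testes lay above both WT testes, as for 2 of the 8 genes (Dnmt3a and Uhrf1) and 15.9% of all genes tested, while the difference of 0.53 (95% confidence interval −1.01 to 2.07) did not pass. Mouse 308, with the highest Dnmt3a, Dnmt1 (109 RPKM), Dnmt3b (32.4 RPKM) and Tet3 (16.5 RPKM) of the testes, also had the highest sum of spermatogonial markers, 375.4 RPKM, against 52.8 to 138.5 RPKM in the other 6. Uhrf1 had 68.1 and 50.8 RPKM in WT mice 178 and 648 and 130.0, 135, 143, 189 and 131 RPKM in KO mice 214, 269, 273, 286 and 308, again without overlap, with a difference of 0.61 (95% confidence interval −0.27 to 1.49, limma adjusted p = 0.999). In mice 178 and 648 whole-testis Uhrf1 lay below all 4 sorted stages of the same mouse. In mouse 286 it lay above the 3 stages sequenced, which lack primary spermatocytes, where Uhrf1 was highest in other mice. The median log2 difference of all genes between KO and WT testes was 0.39 on the deposited RPKM and is removed by quantile normalization.

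The ovary was compared with the testes without a test, since there was 1. It lay above all 7 testes and at least 2-fold from their median for 4 of the 8 genes, where 40.8% of 23570 genes did, and below them for 0 of the 8, where 19.3% did. Dnmt3a had 178 RPKM in the ovary, 11.3 times the median of the testes, and Dnmt1 had 124 RPKM, 2.40 times. Tet1 had 16.4 RPKM, 10.9 times, and Tet2 had 4.35 RPKM, 11.6 times. Tet3, Dnmt3b, Dnmt3l and Uhrf1, with 13.0, 18.8, 5.30 and 123 RPKM, lay within the range of the testes. On quantile-normalized values Dnmt3a, Tet1 and Tet2 were 5.76, 3.71 and 4.91 times the median of the testes and above all of them, while Dnmt1 was 1.45 times and was no longer counted. With 1 transcript per gene Tet3 was 6.97 times the median and above all testes. Summed markers of somatic cells were higher in the ovary than in the testes, with 4169 RPKM of steroidogenic (Leydig) markers against 9.47 to 34.2, 1933 of granulosa cell markers against 7.20 to 53.5, and 639.8 of peritubular and stromal markers against 9.92 to 115. The sum of oocyte markers was also higher in the ovary, at 114.8 RPKM against 8.84 to 35.2 in the testes. The part of somatic cells and of oocytes in the ovary levels was not tested.

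Genes that work with these enzymes were taken as lists and compared between spermatids and spermatogonia, where the median of all genes was 0.01 and, as above, 22.6% of all genes were called lower and 21.9% higher. Of 6 partners of maintenance, 4 fell and 0 rose, with a median of −2.48. Cdca7 and Hells, which form a chromatin remodeller needed for methylation, both fell. The difference was −4.71 for Cdca7 (SE 0.63, limma adjusted p = 0.00013) and −4.21 for Hells (SE 0.66, limma adjusted p = 0.000277), and Cdca7 went from 29.2 to 84.0 RPKM in spermatogonia to 1.05 to 1.59 RPKM in spermatids. Lig1, the ligase of replication, and Pcna, the sliding clamp, also fell, and Usp7, a deubiquitinase that binds DNMT1, stood at 0.09. Of 7 tested genes of 9 around de novo methylation, 3 fell and 1 rose, with a median of −0.51. The H3K36 methyltransferases Nsd1 and Setd2 and the H3K4 demethylase Kdm1b fell, Nsd1 by 2.36 (SE 0.42, limma adjusted p = 0.00055) and Kdm1b by 2.09 (SE 0.56, limma adjusted p = 0.00651). Zfp57, a zinc finger protein that keeps methylation at imprinted regions, rose by 2.64 (SE 0.70, limma adjusted p = 0.0062), from 10.1 to 143 RPKM in spermatogonia to 108 to 278 RPKM in spermatids.

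Against the same background of 22.6% lower and 21.9% higher, of 7 readers of methylated DNA, 3 fell (Zbtb38, Zbtb33 and Mbd1) and 0 rose, with a median of −0.49. Zbtb38 fell by 3.62 (SE 0.64, limma adjusted p = 0.000508) and Zbtb33, a zinc finger protein that binds methylated DNA, by 4.46 (SE 0.94, limma adjusted p = 0.00146). Of 13 genes of base excision repair and removal of oxidised methylcytosine, 5 fell and 1 rose, with a median of −1.11. The glycosylase Neil2 fell by 2.42 (SE 0.49, limma adjusted p = 0.00116) and Parp1 by 1.60 (SE 0.34, limma adjusted p = 0.00145), while the scaffold Xrcc1 rose by 1.20 (SE 0.37, limma adjusted p = 0.0153). Tdg, the glycosylase that removes oxidised methylcytosine, was among those that fell. Of 6 tested TET partners, 3 fell and 1 rose, with a median of −1.47. Cxxc4 fell by 1.87 (SE 0.55, limma adjusted p = 0.0119) and Sin3a by 1.13 (SE 0.35, limma adjusted p = 0.0149), and Cxxc5, a CXXC zinc finger protein related to Cxxc4, rose by 1.98 (SE 0.49, limma adjusted p = 0.004). Trdmt1, a relative of the methyltransferases that acts on transfer RNA, had a difference of −0.71 and did not pass. Dnmt3c, a rodent de novo enzyme, had at most 0.304 RPKM in sorted cells and was below the filter. In the genotype comparisons 0 genes of these lists were called.

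**Figure D4:**
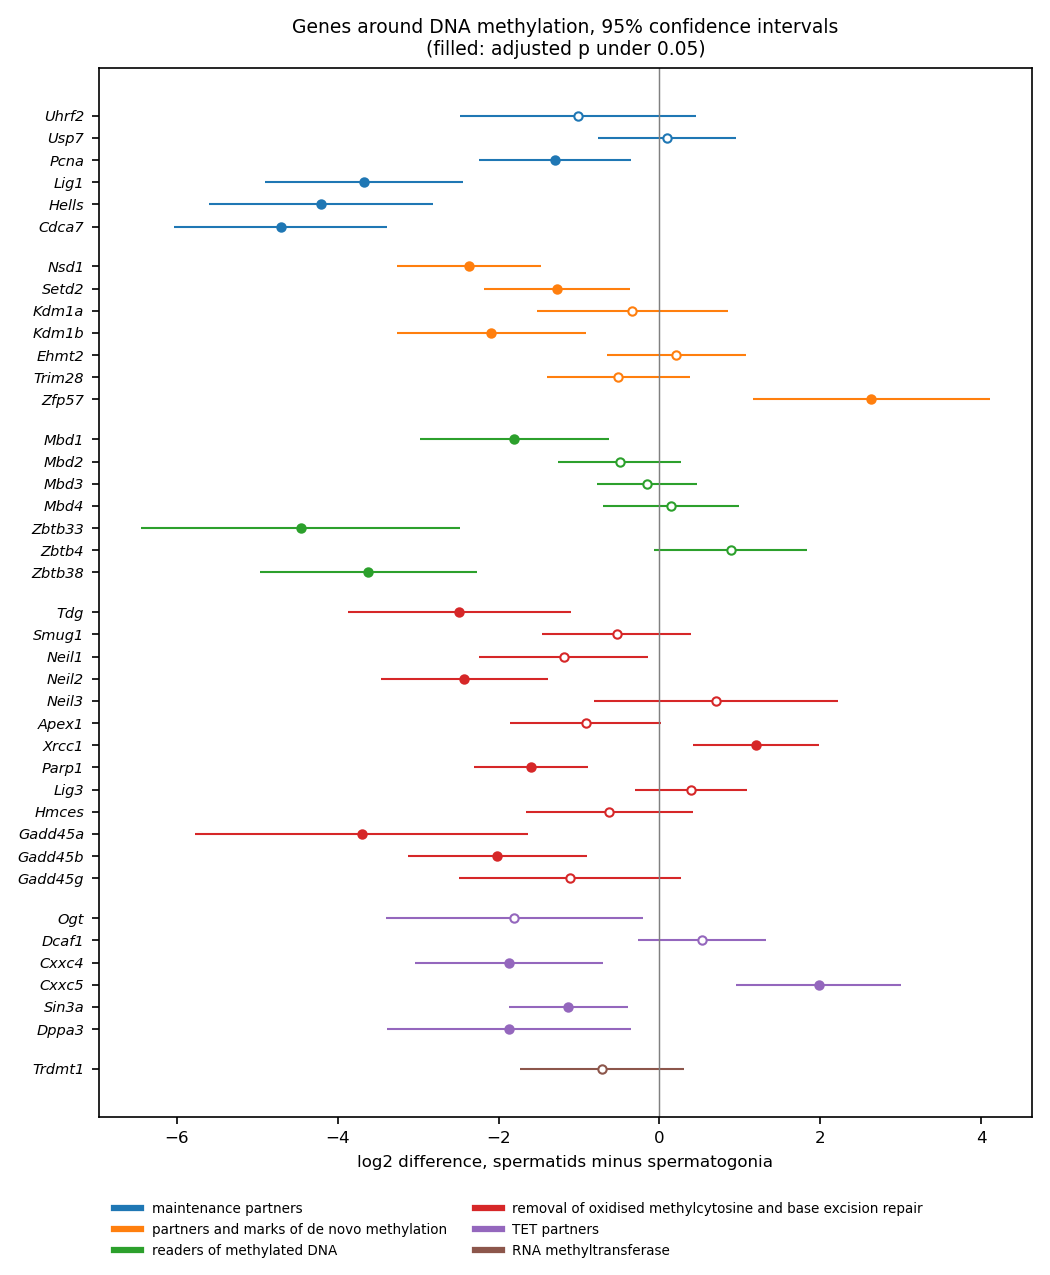
Difference between spermatids and spermatogonia on the log2(quantile-normalized RPKM + 0.1) scale with 95% confidence intervals for the tested genes of 6 lists, coloured by list, with filled points past the threshold. Of the genes past the threshold 3 lie to the right of 0 (Zfp57 at 2.64, Cxxc5 at 1.98 and Xrcc1 at 1.20) and all others to the left.

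Over the 20 sorted libraries, the genes with the levels most alike to each member were found by Pearson correlation among 12649 protein-coding genes, as a description of libraries that share stages and mice. For Dnmt1 they were Plcb3 (r = 0.976), Tonsl (0.960) and Anp32b (0.953), and for Uhrf1 they were Snrnp25 (0.935), Ebna1bp2 (0.917) and Rhot2 (0.915). For Dnmt3a they were Taldo1 (0.947), Marcksl1 (0.932) and Samd1 (0.932), and for Dnmt3b Pgm1 (0.966), Acly (0.963) and Mapk7 (0.961). For Dnmt3l they were Adgrf3 (0.968), Nol4 (0.966) and Dcun1d4 (0.961). Tet1 was most like Nfib (0.899), Tet2 most like Olfml2b (0.948) and Col4a1 (0.945), and Tet3 most like Prr12 (0.977) and Igf1r (0.973). No member was among the 3 nearest of another, and among the members r was 0.876 between Dnmt1 and Dnmt3b, 0.796 between Dnmt3a and Tet3 and −0.736 between Dnmt1 and Dnmt3l.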

How the data were processed

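Per the study's methods, the authors isolated poly(A) RNA, aligned paired reads with TopHat2 and counted them on Ensembl transcripts. The deposited values are RPKM per transcript, and their whole-read steps were used here only to read back depth. RPKM were summed per gene, so that reads on shared exons count once per transcript. Transcripts were matched to names for 90432 of 94480 (95.7%). The members and gene lists were chosen with earlier results of these data known. Named were all members, their 57 transcripts, the 3 genes most alike each member, and the 2 genes with the smallest adjusted p per direction in each list; 1 gene of the list of readers is not reported here.

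Gene sums were quantile normalized, a pseudocount of 0.1 RPKM was added, and genes with a mean of at least 0.1 RPKM were tested with limma 3.58.1 (R 4.3.3) in 8 groups of genotype by stage. On simulated data with 200 changed genes and a log2 change of 2, the test recovered 100% for primary spermatocytes against spermatogonia (19026 genes). For whole testis it recovered 87.5% (22760 genes). The simulated noise was independent between libraries, with an SD of 0.5, and had no pairing by mouse. These shares therefore do not give the power in the real libraries. Labels name the mouse, so libraries of 1 mouse are paired: their deviations from group means had a median correlation of 0.471 (22 pairs, −0.202 to 0.706), against −0.033 for 151 pairs of other mice and groups. The main design has no block, and the block is an alternative. Alternatives changed the scale, pseudocount, filter, transcript choice, libraries and terms. The columns fall into 4 sets by which transcripts have a value, and the set was a term in 1 alternative. Among sorted libraries, KO mice 544 and 550 share a set without WT libraries, and KO mouse 613 stands alone. WT mice 178 and 351 share a set with KO mouse 286, and WT mouse 648 shares a set with KO mouse 614. The authors' surrogate-factor correction was not applied here.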

Additional observations from a re-analysis of the deposited data

Results flagged for a closer look

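Groups of 4 to 10 libraries, here KO primary spermatocytes and KO whole testes, were checked for each of the 8 genes. A library far from the others of its group was found in 2 cases. Chance alone gives about 1 in 20 for every gene checked in a group. Tet2 was 0.822 RPKM in KO primary spermatocytes of mouse 613, where the other 3 libraries had 0.022 to 0.037 RPKM; the values of this column do not step in whole reads. Uhrf1 was 189 RPKM in the KO whole testis of mouse 286, where the other 4 KO testes had 130.0 to 143 RPKM.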

How the results depend on the processing

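The calls of Dnmt1, Dnmt3a, Dnmt3b, Dnmt3l and Tet3 between spermatids and spermatogonia held in every alternative except KO libraries alone. Counts of genes called moved more. Leaving out 1 mouse gave 2260 to 7174 genes in primary spermatocytes against spermatogonia (5949), 0 to 1231 in secondary against primary spermatocytes (513), 0 to 97 in spermatids against secondary spermatocytes (18), 4947 to 10553 in spermatids against spermatogonia (8462), 0 to 940 between genotypes in sorted cells (2; 940 without mouse 286) and 0 to 2 in whole testis (0; 2 without mouse 178). KO libraries alone gave 0, 3, 0 and 0 genes in the 4 stage comparisons, and WT libraries alone 0 in both middle ones.

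Secondary against primary spermatocytes gave 315 genes with a pseudocount of 0.01, 273 with no filter, 244 with 1 transcript per gene, 2559 with a term for the quantification set, 3685 with the replicate block, 1431 without the spermatogonia library of mouse 544 and 1110 without mice 613 and 614, an alternative chosen after seeing the data. Spermatids against secondary spermatocytes gave, in the order of these settings, 111 with no filter, 0 with 1 transcript, 1042 with the set, 1342 with the block, 53 and 10, and also 103 on deposited RPKM, 255 with a pseudocount of 1, 400 without the spermatid libraries of mice 648 and 286 (also chosen after seeing the data) and 6 with a mean of at least 1 RPKM. Genotype in sorted cells gave 1 (pseudocount 1), 5 (no filter), 1 (mean of at least 1 RPKM), 5 (set), 0 (block) and 4 (without 613 and 614), and the stage interaction 7 with no filter. The block changed member calls as given above and no others. On deposited RPKM the genes called higher and lower split as 1808 and 4190, 543 and 37, 1 and 102, and 2838 and 5718 in the 4 stage comparisons, against 3102 and 2847, 300 and 213, 3 and 15, and 4171 and 4291.

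All sign changes were in values that did not pass. Dnmt3l in primary spermatocytes against spermatogonia (−0.11) was 0.013 with the set, 1.16 in WT alone, 0.82 without the spermatogonia library of mouse 544 and −1.04 to 0.76 leaving out 1 mouse. Uhrf1 was −0.51 with 1 transcript there and 0.25 at the next step, where Dnmt3a was −0.44 in KO alone (−0.080 to 0.63 leaving out 1 mouse) and Tet3 was 0.32 (deposited), 0.033 (set), 0.61 (WT alone) and 0.13 (without 613 and 614).

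Between genotypes in sorted cells, Dnmt1 was 0.049 (deposited), 0.34 (set) and 0.18 (without the 544 library; −0.40 to 0.21 leaving out 1 mouse). Dnmt3b was −0.034 and Uhrf1 −0.21 with 1 transcript (−0.066 to 0.54 and −0.31 to 0.71). Tet1 was 0.12 (deposited), 1.0 (set), 0.040 (block) and 0.082 (without the 544 library; −1.21 to 0.90). Tet2 was 0.18 (set). Tet3 was 0.18 (deposited), 1.11 (set) and 0.021 (without the 544 library; −0.94 to 0.45). In whole testis Dnmt1 was 0.57 (deposited) and 0.25 (set; −0.38 to 0.24 leaving out 1 mouse), Tet2 −0.71 to 1.22 and Tet3 −0.48 to 1.02. The cause was not tested.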
